A study of Mus musculus with 12 samples.

Results

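MHC class II presentation genes were followed in perivascular macrophages of the mouse brain, the macrophages that lie along the brain's blood vessels. The set of 10 genes was taken by symbol from the deposited table of 17358 genes, and all 10 were found. They are the invariant chain gene Cd74, the class II chain genes H2-Aa, H2-Ab1 and H2-Eb1, the peptide-loading genes H2-DMa, H2-DMb1 and H2-DMb2, the transactivator gene Ciita, and the co-stimulator genes Cd80 and Cd86. The filter on low counts was passed by 9 of the 10, all but H2-DMb2. The libraries came from C57BL mice aged 18 months (aged, n = 5) and from young adult C57BL mice aged 3 months (young, n = 7). The labels give no genotype, treatment, sex, sort marker or batch, and the number of animals or cells behind a library is not stated, so p-values measure the spread between libraries. RNA was turned into cDNA by SMART-seq2, which primes on poly(A) tails and amplifies full-length cDNA from very small inputs, and it carries neither strand nor molecular identifiers.

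Class II molecules present peptides from the endosome to CD4+ T cells. An alpha and a beta chain are assembled in the endoplasmic reticulum with the invariant chain, which fills the groove and directs the complex to endosomes. Proteases then degrade the invariant chain, and H2-DM exchanges its last fragment for antigenic peptide. The genes of the chains, the invariant chain and H2-DM share a promoter arrangement of X and Y boxes on which the RFX complex, CREB and NF-Y assemble and recruit CIITA. Border-associated macrophages of the brain, the perivascular ones among them, are known to include cells with high and cells with low class II, whereas resting microglia express little of it.

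Library totals ranged from 23214836 to 30628787 estimated counts, and 3 counts, the floor used here, corresponded to between 0.0937 and 0.15 normalised CPM (counts scaled to the library total and by TMM factors). The summed FPKM of 10 perivascular macrophage markers was between 9079 and 15842 in aged libraries and between 11646 and 20783 in young libraries. That of 8 microglial markers was between 1540 and 2156 in aged libraries and between 1804 and 2984 in young libraries. Class II is also made by dendritic cells and B cells, and their markers are given beside the class II results below. Aged libraries 1, 3 and 4 were separated from the other 9 by the first principal component of all tested genes (15.49% of the variance), at -76.1, -95.1 and -105, against 10.8 to 47.6 for the others. Fold changes of the tested members, and the correlations that passed their test, are therefore also given without them. In bulk libraries, fewer cells of a type and less RNA per cell cannot be told apart.

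All 6 major histocompatibility members lie within the same stretch of chromosome 17 (GRCm38): H2-DMa at chr17:34119693-34139101, H2-DMb2 at chr17:34143229-34151553, H2-DMb1 at chr17:34153191-34160229, H2-Ab1 at chr17:34263227-34269418, H2-Aa at chr17:34282744-34287823 and H2-Eb1 at chr17:34305867-34316674. Ciita (chr16:10480014-10531064), Cd86 (chr16:36568956-36666158) and Cd80 (chr16:38457430-38495958) share chromosome 16. Because several of these genes were correlated across libraries (below), 4 promoters from the chromosome 17 cluster are shown. Each runs from 250 bases before to 50 bases after a RefSeq start on GRCm38.p6. They are the promoters of 2 chain genes and of the closely similar pair of H2-DM beta genes. The start used for H2-DMb2 lies inside the gene span given above, unlike the starts of the other genes shown. Capitals mark the Y box ATTGG, the reverse complement of CCAAT, and an X box core, searched as AGNAAC or GGNAAC, where one begins 20 to 40 bases upstream of it. Matches elsewhere in a window, or on the other strand, are left in lower case.
H2-Aa (chr17:34287774-34288073, minus strand): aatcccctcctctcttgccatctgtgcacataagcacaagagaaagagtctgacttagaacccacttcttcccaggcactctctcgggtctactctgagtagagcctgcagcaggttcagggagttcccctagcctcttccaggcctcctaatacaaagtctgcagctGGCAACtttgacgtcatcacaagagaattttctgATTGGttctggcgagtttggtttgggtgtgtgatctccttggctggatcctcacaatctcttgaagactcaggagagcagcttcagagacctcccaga
H2-Eb1 (chr17:34305617-34305916, plus strand): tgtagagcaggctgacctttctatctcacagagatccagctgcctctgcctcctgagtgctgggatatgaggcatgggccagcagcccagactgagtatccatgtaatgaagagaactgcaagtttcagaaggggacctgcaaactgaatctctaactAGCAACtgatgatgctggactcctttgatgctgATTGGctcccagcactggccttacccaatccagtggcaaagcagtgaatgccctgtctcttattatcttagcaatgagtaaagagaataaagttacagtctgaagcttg
H2-DMb1 (chr17:34152941-34153240, plus strand): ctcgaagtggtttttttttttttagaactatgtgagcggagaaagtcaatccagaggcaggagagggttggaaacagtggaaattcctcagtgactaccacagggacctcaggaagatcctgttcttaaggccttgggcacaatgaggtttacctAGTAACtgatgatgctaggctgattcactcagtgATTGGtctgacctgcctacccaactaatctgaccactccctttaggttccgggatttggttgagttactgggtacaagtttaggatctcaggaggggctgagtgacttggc
H2-DMb2 (chr17:34144999-34145298, plus strand): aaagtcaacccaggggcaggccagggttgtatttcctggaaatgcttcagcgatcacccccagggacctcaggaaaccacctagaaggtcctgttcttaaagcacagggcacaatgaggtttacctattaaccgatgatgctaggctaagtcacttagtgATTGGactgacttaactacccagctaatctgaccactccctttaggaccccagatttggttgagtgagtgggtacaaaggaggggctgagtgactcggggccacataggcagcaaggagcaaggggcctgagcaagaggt

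In the H2-Aa window the X letters read GGCAAC and began 82 bases before the start, with the Y letters 34 bases downstream and TGACG, the core of the X2 box bound by CREB, between them. In the H2-Eb1 window AGCAAC began 92 bases before the start and the Y letters 33 bases further on. In the H2-DMb1 window AGTAAC began 95 bases before the start and the Y letters 34 bases further on. In the H2-DMb2 window the Y letters began 90 bases before the start, and neither searched X form began 20 to 40 bases upstream of them. The letters attaac lie there, where H2-DMb1 has AGTAAC, but ATTAAC was not among the forms searched. Among 32851 RefSeq promoter windows of the same length, searched on both strands, 48.1% held AGNAAC, 37.4% held CCAAT and 20.8% held TGACG. The ordered pair AGNAAC and ATTGG, 20 to 40 bases apart start to start on the same strand, was in 1.12% of windows, H2-Eb1 and H2-DMb1 among them. With GGNAAC also allowed as the X letters, a form added after these windows had been read, the pair was in 2.24%, H2-Aa included. These matches describe letters, not bound sites. Of the other member windows searched, those of Cd80 (1) and H2-DMa (2) did not hold the pair. The promoter of Cd74 was left out of the search, so whether it holds the pair is not given.

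**Figure D1:**
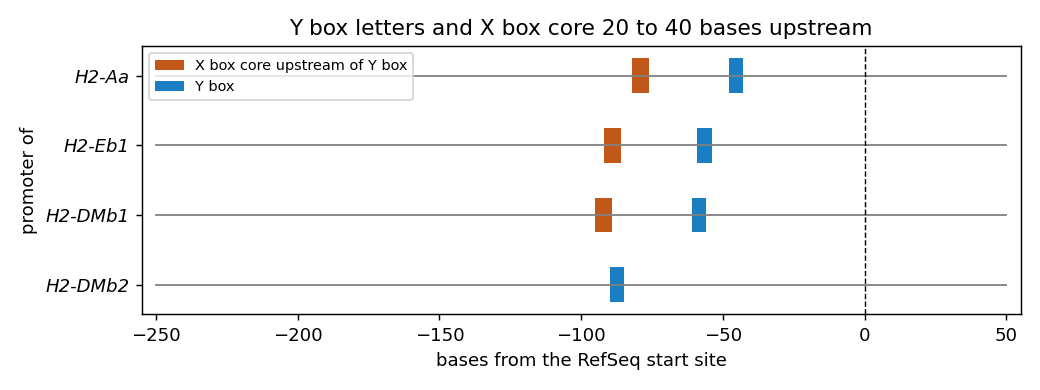
Positions of the Y box letters, and of X box core letters 20 to 40 bases upstream of them, in the 4 promoter windows, in bases from the RefSeq start site (dashed line), with coloured blocks drawn to scale. H2-Aa, H2-Eb1 and H2-DMb1 hold the pair in a searched form, 33 or 34 bases apart. H2-DMb2 holds no searched form, and its letters attaac are not drawn.

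Per length of transcript, the order of the genes ran from Cd74 over the chains to Ciita. Cd74 averaged 5494 FPKM over the 12 libraries, 20th among the 17358 genes of the table. H2-Aa followed at 2309 FPKM, H2-Ab1 at 1113 FPKM and H2-Eb1 at 386 FPKM. Each of Cd74, H2-Aa and H2-Ab1 was above the next gene in that order in 12 of 12 libraries. H2-Eb1, Cd86 (293 FPKM), H2-DMa (247 FPKM) and H2-DMb1 (192 FPKM) were not separated from their neighbours in this way: H2-Eb1 was above Cd86 in 8 libraries, Cd86 above H2-DMa in 7 and H2-DMa above H2-DMb1 in 9. Cd80 averaged 17.1 FPKM and was below H2-DMb1 in 12 of 12 libraries. H2-DMb2 (4.57 FPKM) and Ciita (1.07 FPKM) came last, and H2-DMb2 was the higher in only 4 libraries. The transactivator was thus the lowest member, at rank 9195 of 17358, while the invariant chain and class II chain genes, which it is known to switch on, were the highest.

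Cd74 (chr18:60803849-60812652) encodes the invariant chain. Its level was 10119, 8982, 3789, 3461 and 5706 normalised CPM in aged libraries 1 to 5, against a lowest of 3656, a median of 7175 and a highest of 10266 normalised CPM in young libraries. The aged libraries split into a high pair, a low pair and 1 between, and the groups overlapped over nearly their whole range. Cd74 averaged 6412 ± 3018 normalised CPM in aged (SD, n = 5) and 6673 ± 2204 in young libraries (SD, n = 7), a log2 fold change of -0.06 ± 0.30 (SE; 95% interval -0.68 to 0.57), which did not pass edgeR's quasi-likelihood test (adjusted p = 0.999). Leaving out aged libraries 1, 3 and 4 gave 0.14.

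H2-Aa encodes the alpha chain of the I-A molecule. It was at 4500, 2347, 973, 967 and 3251 normalised CPM in aged libraries 1 to 5, against a lowest of 1832, a median of 2254 and a highest of 2695 in young libraries. The young libraries lay close together, and the aged ones fell on both sides of them, with 2 below every young library and 2 above every one. The log2 fold change was 0.12 ± 0.32 (95% interval -0.55 to 0.79, edgeR adjusted p = 0.999), 0.33 without aged libraries 1, 3 and 4, and negative, at -0.25, without aged library 1.

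H2-Ab1 encodes the beta chain that pairs with it. It was at 2111, 1798, 460, 318 and 1051 normalised CPM in aged libraries 1 to 5, against 747, 1338 and 2021 as the lowest, median and highest in young libraries. Again aged libraries 3 and 4 were below all 7 young libraries and aged library 1 above all of them. The log2 fold change was -0.21 ± 0.39 (95% interval -1.04 to 0.62, edgeR adjusted p = 0.999), and 0.10 without aged libraries 1, 3 and 4.

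H2-Eb1, the beta chain of the I-E molecule, was at 845, 659, 292, 271 and 720 normalised CPM in aged libraries 1 to 5, against 472, 579 and 909 as the lowest, median and highest in young libraries. Only aged libraries 3 and 4 left the young range. The substrain is not given in the labels. C57BL/6 mice are known to lack I-E on the cell surface because their alpha chain gene, H2-Ea, is not made into a functional transcript. H2-Ea was looked up by its symbol and was not among the genes of the deposited table, so no level can be given. The log2 fold change of H2-Eb1 was -0.24 ± 0.29 (95% interval -0.86 to 0.38, edgeR adjusted p = 0.999), and 0.06 without aged libraries 1, 3 and 4.

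**Figure D2:**
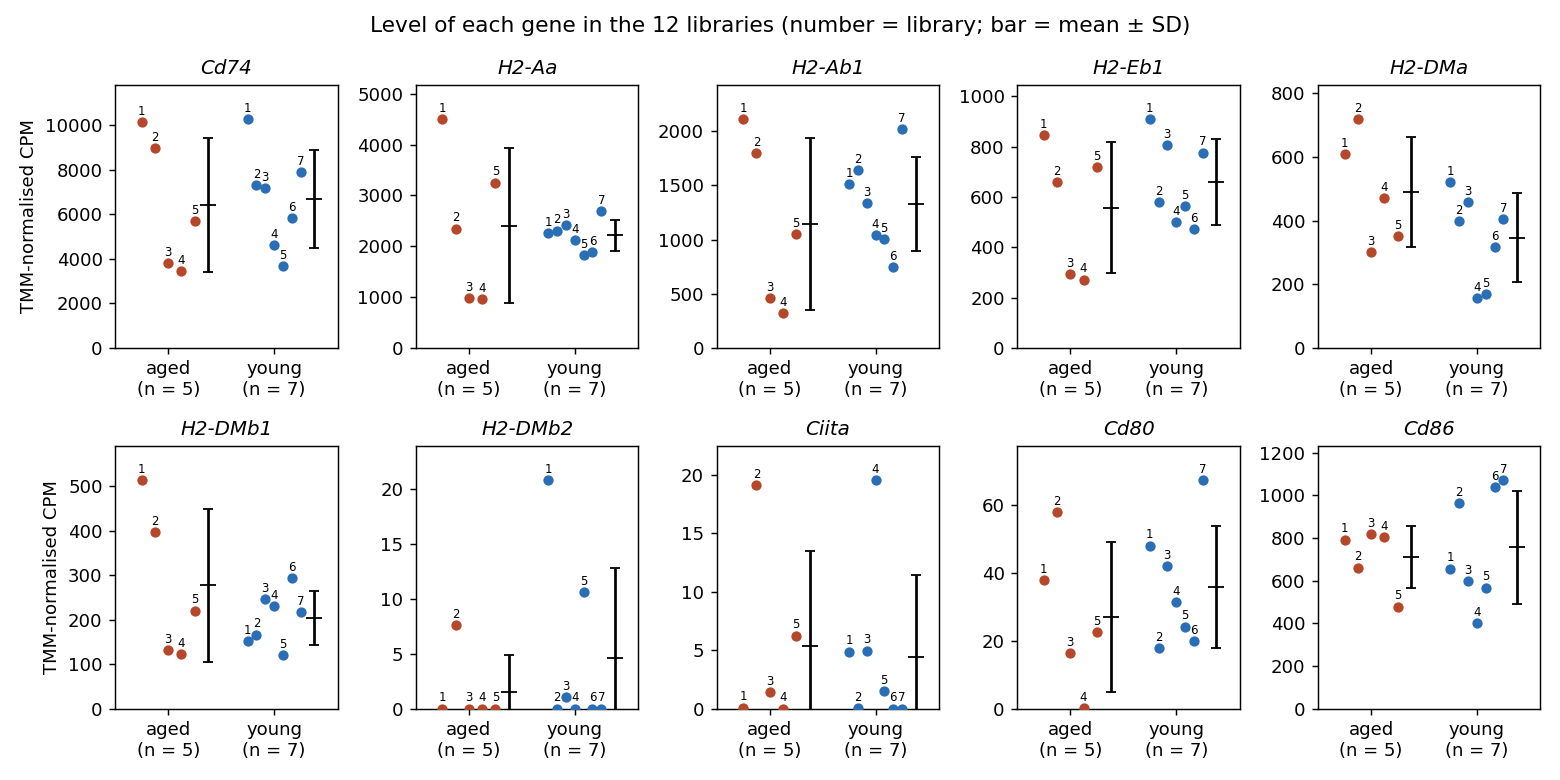
TMM-normalised CPM of the 10 genes in aged (red, n = 5) and young (blue, n = 7) libraries; each point is 1 library with its number, bars are the mean ± SD, and each panel has its own axis from 0. Aged libraries 3 and 4 are the lowest of the 12 for H2-Aa, H2-Ab1 and H2-Eb1 but not for Cd86.

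H2-DMa and H2-DMb1 encode the chains of H2-DM, the endosomal chaperone that removes the last invariant chain fragment and edits the bound peptides. H2-DMa was at 608, 718, 302, 471 and 351 normalised CPM in aged libraries 1 to 5, against 156, 398 and 520 as the lowest, median and highest in young libraries. Its fold change was the largest of the 9, at 0.50 ± 0.31 on the log2 scale (95% interval -0.16 to 1.17, unadjusted p = 0.128, edgeR adjusted p = 0.999), and 0.33 without aged library 2. H2-DMb1 was at 514, 397, 132, 123 and 220 normalised CPM in aged libraries 1 to 5, against 121, 217 and 294 in young libraries, with a log2 fold change of 0.45 ± 0.35 (95% interval -0.29 to 1.19, unadjusted p = 0.22, edgeR adjusted p = 0.999). Leaving out aged library 1 alone gave 0.0853 for H2-DMb1, and leaving out aged libraries 1, 3 and 4 gave 0.60 for H2-DMb1 and 0.63 for H2-DMa. Aged libraries 1 and 2 were above every young library for both genes, and the other 3 aged libraries lay within the young range. The ratio of H2-DMa to H2-DMb1 in FPKM was between 0.904 and 2.93 in aged libraries and between 0.515 and 2.61 in young libraries, so the chains were not read out in a fixed proportion. Estimated counts of H2-DMa were fractional in 8 libraries, and any sharing of its reads with other genes was not examined.

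H2-DMb2, a second beta chain gene of H2-DM, was detected in 1 of 5 aged libraries (225 estimated counts, 7.59 normalised CPM) and in 3 of 7 young libraries (30.9, 335 and 564 estimated counts). It was listed at 0 in the other 8. Its transcript was 94.42% identical to that of H2-DMb1 over 1255 aligned bases, with a longest shared run of 221 bases. Reads were divided between them: H2-DMb1 had a fractional estimated count in 4 libraries, those in which H2-DMb2 was above 0, and in all 4 the sum of the genes was whole to within 0.011. The split between the beta genes is therefore uncertain in those 4 libraries. Their promoters were 84.21% identical over 247 aligned bases, while the H2-DMb1 and H2-Eb1 promoters shown above were 64.29% identical.

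Ciita encodes the transactivator that class II promoters recruit. It was at 0.0804, 19.2, 1.401, 0 and 6.26 normalised CPM in aged libraries 1 to 5 and at 4.88, 0.0714, 4.98, 19.6, 1.52, 0 and 0 normalised CPM in young libraries 1 to 7. Both groups held libraries at or below the floor of 3 counts (aged 1 and 4, young 2, 6 and 7) beside 1 library each at over 19 normalised CPM. The class II chains were abundant in libraries of either kind: H2-Aa was at 4500 normalised CPM in aged library 1, which had 2 Ciita counts, and at 2347 in aged library 2, which had the most Ciita of the aged libraries. The log2 fold change of Ciita was 0.28 ± 1.92 (95% interval -3.77 to 4.33, edgeR adjusted p = 0.999), an interval too wide to exclude a large difference in either direction. It was 1.53 without aged libraries 1, 3 and 4 and -1.19 without aged library 2.

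Cd80 and Cd86 encode the ligands of CD28 and CTLA-4 on T cells. Cd80 was at 37.9, 57.9, 16.3, 0.0479 and 22.4 normalised CPM in aged libraries 1 to 5, against 17.8, 31.3 and 67.3 as the lowest, median and highest in young libraries. In aged library 4 that level was a single count, below the floor. Cd86 was at 793, 661, 819, 804 and 478 normalised CPM in aged libraries 1 to 5, against 401, 656 and 1072 in young libraries. All 5 aged libraries lay inside the young range for Cd86, aged libraries 3 and 4 included. The log2 fold change was -0.41 ± 0.91 (95% interval -2.32 to 1.5) for Cd80 and -0.09 ± 0.25 (95% interval -0.63 to 0.45) for Cd86, both with an edgeR adjusted p of 0.999. Without aged libraries 1, 3 and 4 these were 0.18 for Cd80 and -0.41 for Cd86, and without aged library 4 alone Cd80 was at -0.0911. Per length, Cd86 exceeded Cd80 by 8.56-fold to 33.6-fold in the 7 young libraries and by 10.1-fold to 30.9-fold in the 4 aged libraries with more than 1 Cd80 count.

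None of the 9 tested genes differed between aged and young libraries at an adjusted p under 0.05, and 0 had an unadjusted p under 0.05; DESeq2, limma-voom and edgeR's bias-adjusted mode also called 0, with 0 at an unadjusted p under 0.05. Over all genes edgeR called 1 of 9550 (0.0105%; Ttr, described with the choroid plexus markers below), DESeq2 121 of 9495 (1.27%) and the bias-adjusted mode 38 of 9550 (0.398%), so 0 of 9 lies near the background and says nothing particular about these genes. Of the 9 log2 fold changes 4 were positive and 5 negative, with a median of -0.06, against 4724 positive and 4826 negative with a median of -0.01 over all genes tested. The groups overlapped for every member; they did not overlap for 57 of the 9550 tested genes (0.597%). The 95% intervals lay within a 2-fold difference in either direction for Cd74, H2-Aa, H2-Eb1 and Cd86, and they reached further for the other members.

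**Figure D3:**
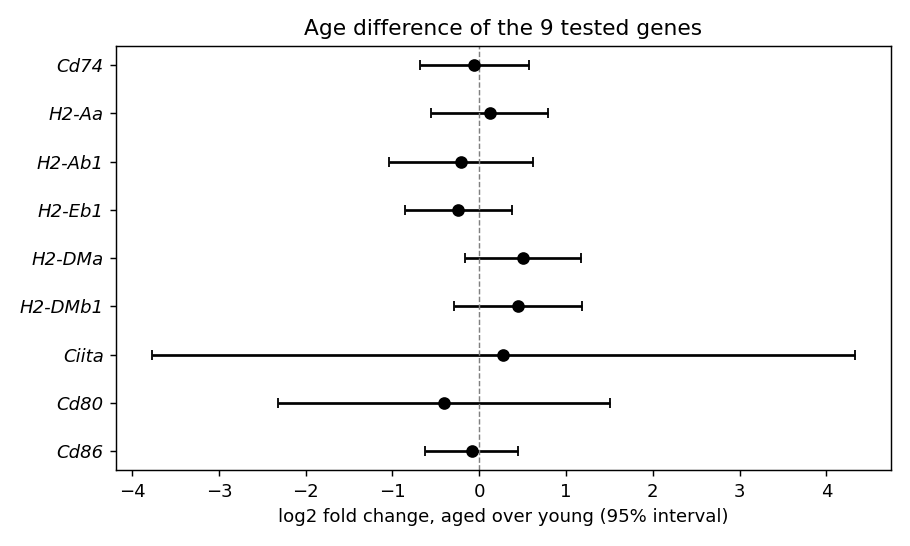
Log2 fold change, aged over young, of the 9 tested genes from edgeR's quasi-likelihood fit; points are estimates and bars 95% intervals. Every interval spans 0, and those of Ciita and Cd80 are the widest.

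The chain genes were more spread out among aged than among young libraries, which is described here without a test. The coefficient of variation of H2-Aa was 63.1% in aged and 13.6% in young libraries. Among the 1509 tested genes that averaged at least 100 normalised CPM, these values were at the 91.8th percentile in aged and at the 2.7th in young libraries. For H2-Ab1 the coefficient was 69.2% in aged and 32.7% in young libraries, and for H2-DMb1 62.0% and 29.5%. H2-DMa (35.5% in aged, 40.5% in young) and Cd86 (20.4% in aged, 35.0% in young) varied less among the aged libraries. The highest and lowest aged values of H2-Aa, H2-Ab1 and H2-DMb1 were those of libraries 1 and 4. In aged libraries 2 and 5, H2-Aa was at 2347 and 3251 normalised CPM, H2-Ab1 at 1798 and 1051, and H2-DMb1 at 397 and 220, and no coefficient was computed over 2 libraries. A larger coefficient in aged libraries was seen for 5 of the 7 members at this level and for 1007 of the 1509 genes (66.7%), so the direction alone is not particular to these genes.

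Together Cd74, H2-Aa, H2-Ab1 and H2-Eb1 took 1.63%, 1.34%, 0.475%, 0.437% and 1.204% of the estimated counts in aged libraries 1 to 5, against up to 1.36% in young libraries. These are shares of the library total, without TMM factors. Aged libraries 3 and 4 held about the same small share, and the lowest young library was at 0.823%. The proportions differed between pairs of genes: the FPKM ratio of Cd74 to H2-Ab1 was 7.92 and 10.4 in aged libraries 3 and 4, 4.59 to 5.17 in the other aged libraries and 3.45 to 7.44 in young libraries. The ratio of Cd74 to H2-Aa was 3.35 and 3.07 in aged libraries 3 and 4, within the 1.69 to 3.89 of young libraries.

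**Figure D4:**
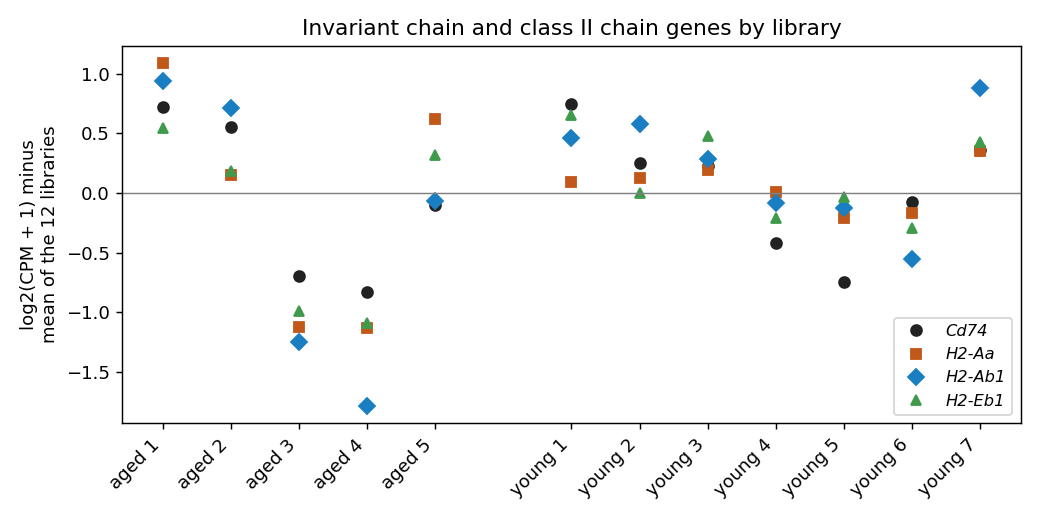
Level of Cd74, H2-Aa, H2-Ab1 and H2-Eb1 in each of the 12 libraries, as log2(normalised CPM + 1) minus the gene's mean over the 12. All 4 genes are low in aged libraries 3 and 4 and high in aged library 1, and H2-Ab1 has the lowest point, in aged library 4.

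Across the 12 libraries the genes of the invariant chain and the class II chains were positively correlated. Correlations were computed on log2(normalised CPM + 1) for all 45 pairs of the 10 genes, with two-sided permutation tests adjusted over the 45. All 6 pairs among Cd74, H2-Aa, H2-Ab1 and H2-Eb1 passed, with Pearson's r from 0.7501 to 0.907, against a median r of 0.322 over the 45 pairs. The closest pair was H2-Ab1 and H2-Eb1 (r = 0.907, Spearman's rho = 0.811, permutation adjusted p = 0.00375 for r). Cd74 and H2-Ab1 were also close (r = 0.846, rho = 0.867, permutation adjusted p = 0.00375 for r). Cd74 and H2-Aa were the loosest pair of the 6 (r = 0.7501, rho = 0.685, permutation adjusted p = 0.015 for r and 0.0767 for rho).

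The strength of these correlations rested in part on aged libraries 3 and 4. Without the 2 libraries farthest from the median of the first gene, which were aged 3 and 4 for H2-Aa and H2-Ab1, r was 0.585 for H2-Aa with H2-Ab1, 0.621 for H2-Aa with H2-Eb1 and 0.680 for H2-Ab1 with H2-Eb1, and these relations no longer passed. Cd74 kept its relation with H2-Ab1 (r = 0.873) and with H2-Eb1 (r = 0.853) without its own 2 farthest libraries, aged 4 and young 5, but not with H2-Aa (r = 0.681). The pair of Cd74 and H2-Aa also missed the threshold when aged library 1, 3 or 4 alone was left out (r = 0.692, 0.699 and 0.670). Within the 7 young libraries alone the 6 pairs had r between 0.657 and 0.892, all positive, and 0 passed the exact permutation test after adjustment. The highest, H2-Aa with H2-Ab1, had r = 0.892 (exact permutation p = 0.00873, adjusted p = 0.131). Without aged libraries 1, 3 and 4 the 6 values were also all positive, from 0.367 to 0.710, and none passed.

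Cd80 was positively correlated with the invariant chain and with both beta chain genes, while no relation of Cd86 with these genes passed. Cd80 had r = 0.829 with H2-Ab1 and 0.781 with H2-Eb1 (rho = 0.748 and 0.762, permutation adjusted p = 0.00375 for each r), and 0.661 with Cd74 (rho = 0.713, permutation adjusted p = 0.0117 for r and 0.0597 for rho). Aged library 4, with 1 Cd80 count, decided these calls: without it r was 0.726 for H2-Ab1, 0.702 for H2-Eb1 and 0.661 for Cd74, at adjusted p of 0.06, 0.0618 and 0.113 by the same permutation test. Without the 2 farthest libraries r was 0.653, 0.628 and 0.675, and none of the 3 passed. Leaving out aged libraries 1, 3 and 4 gave 0.688, 0.641 and 0.587, and again none passed (exact permutation adjusted p = 0.384, 0.384 and 0.403). With the alpha chain gene H2-Aa, Cd80 had r = 0.671 over the 12 libraries and narrowly missed the threshold (rho = 0.615, permutation adjusted p = 0.0575 for r). Cd86 had r between -0.156 and 0.201 with the invariant chain and the chain genes, and -0.129 with Cd80. The difference between the Cd80 and the Cd86 correlations was not tested.

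Of the H2-DM genes, H2-DMa followed Cd74 and H2-DMb1 followed H2-Aa, each with reservations. H2-DMa and Cd74 had r = 0.687 (rho = 0.671, permutation adjusted p = 0.0456 for r and 0.0805 for rho), 0.939 within young libraries (exact permutation p = 0.00218, adjusted p = 0.0982) and 0.918 without aged libraries 1, 3 and 4, where it was the only 1 of the 45 pairs to pass. It missed the threshold on the deposited FPKM values (r = 0.613), on CPM without TMM factors (r = 0.605), and when any library other than aged 4 or young 4 was left out singly (r from 0.605 to 0.693, permutation adjusted p from 0.0657 to 0.142). H2-DMb1 and H2-Aa had r = 0.710 over 12 libraries (rho = 0.650, permutation adjusted p = 0.04 for r and 0.1 for rho) but 0.187 within young libraries. Leaving out aged library 1, 3 or 4 gave 0.569, 0.675 and 0.654, and leaving out young library 3 or 4 gave 0.707 and 0.711, none of which passed. Its r was 0.594 without aged libraries 3 and 4 together. Without aged libraries 1, 3 and 4 it was 0.197, and it did not pass there either. H2-DMa and H2-DMb1, whose products form 1 molecule, had r = 0.447 (adjusted p = 0.363 by the permutation test).

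No relation of Ciita with the genes it is known to activate passed. Its r with Cd74, H2-Aa, H2-Ab1 and H2-Eb1 was between 0.0955 and 0.238, and counts at or near 0 in 5 libraries limit that comparison. Its only relation to pass was a negative one with Cd86 (r = -0.814, rho = -0.852, permutation adjusted p = 0.00911), with r = -0.936 within young libraries (exact permutation p = 0.00516, adjusted p = 0.116) and -0.852 without the 2 libraries farthest in Ciita, aged 2 and young 4. On the deposited FPKM values r was -0.694 and the adjusted p 0.0538 by permutation. Without aged libraries 1, 3 and 4 it was -0.826, which did not pass (exact permutation adjusted p = 0.197). The 5 libraries at or near 0 in Ciita limit this relation too. Among them, young libraries 2, 6 and 7 held the highest Cd86 levels of all, at 963, 1038 and 1072 normalised CPM.

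**Figure D5:**
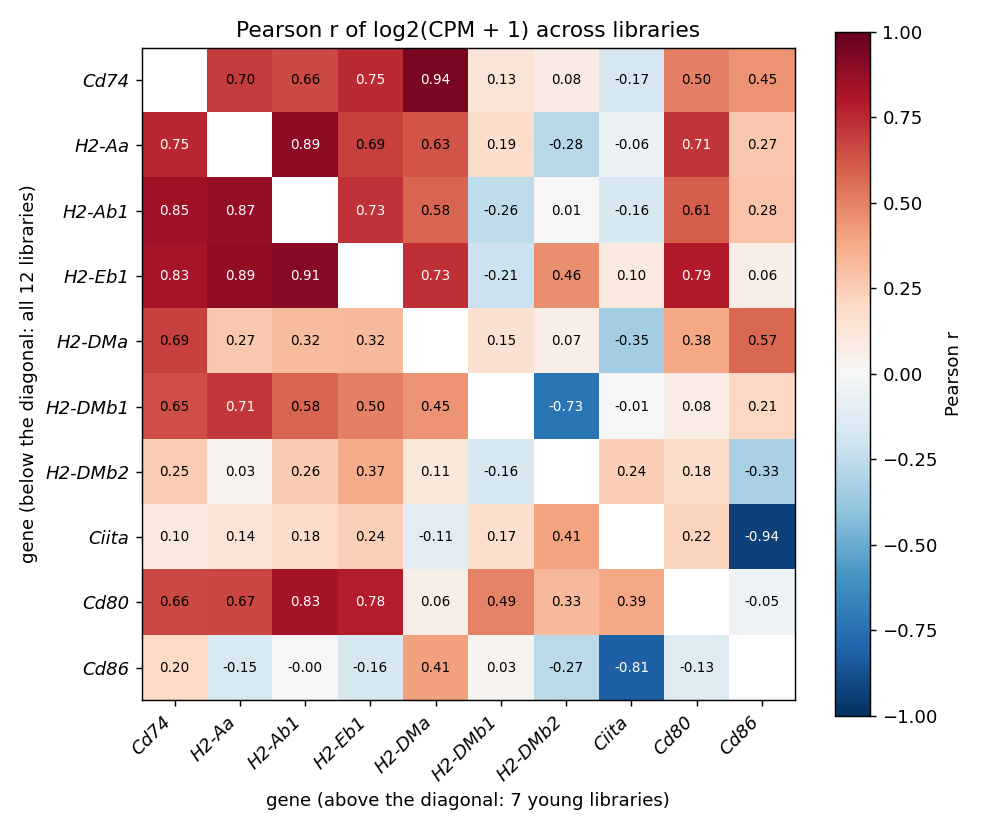
Pearson's r between the 10 genes on log2(normalised CPM + 1), over all 12 libraries below the diagonal and over the 7 young libraries above it, with colour running from blue (negative) to red (positive). The block of Cd74, H2-Aa, H2-Ab1 and H2-Eb1 is positive on both sides, and Ciita with Cd86 is negative on both.

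A class II profile was made as the mean of the 4 genes after each had been centred and scaled over the 12 libraries. Its values were 1.27, 0.60, -1.55, -1.82 and 0.32 in aged libraries 1 to 5, against a lowest of -0.46, a median of 0.33 and a highest of 0.79 in young libraries. Among 6693 genes averaging at least 10 normalised CPM, the median r with this profile was -0.00570, and 105 genes (1.57%) reached 0.75. The 4 genes that make it up were 1st, 2nd, 3rd and 5th by construction. Of the other members Cd80 ranked 68th (r = 0.782), H2-DMb1 255th (0.649), H2-DMa 981st (0.423) and Cd86 3509th (-0.0281). Within young libraries alone the order was another, with r = 0.846 for H2-DMa, 0.705 for Cd80, 0.316 for Cd86 and -0.0526 for H2-DMb1. The 6 other genes most like the profile were Abhd13 (r = 0.930), Nabp2 (0.900), Dtx4 (0.900), Gpalpp1 (0.890), Uqcc3 (0.888) and Blzf1 (0.882), described over 12 libraries with no test. Within the young libraries their r was between 0.435 and 0.823. All but Uqcc3 were at or near 0 in aged libraries 3 and 4, where the profile was lowest. They reached at most 0.851 normalised CPM in aged library 3 (Gpalpp1) and 1.72 in aged library 4 (Blzf1). Uqcc3 was at 13.8 and 12.6 there.

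The profile was set against 8 library properties, with p adjusted over the 8. It followed the library total (r = 0.748, permutation p = 0.00494, adjusted p = 0.0395; rho = 0.650, adjusted p = 0.207). The relation rested on aged libraries 3 and 4, which had the smallest totals, since r was 0.329 without them; it was 0.765 within young libraries (exact permutation p = 0.0524). Whether the smaller totals play a part in the low class II levels was not tested. For the other 7 properties no relation passed: r was 0.378 for the perivascular macrophage markers, 0.0526 for microglial markers, -0.0576 for dendritic cell markers, 0.566 for B cell markers, -0.230 for choroid plexus markers and -0.254 for the number of genes detected, with adjusted p of 0.45, 0.876, 0.876, 0.221, 0.635 and 0.635 by permutation. The first principal component had r = 0.488 (permutation adjusted p = 0.257), and -0.630 without aged libraries 3 and 4.

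Dendritic cell markers summed to between 1021 and 1616 FPKM in aged libraries and to between 357 and 1370 FPKM in young libraries. Nearly all of this was Cd209a, a lectin gene also expressed by macrophages, which was at 1009 to 1601 FPKM in aged libraries, 1349 and 1225 FPKM in young libraries 1 and 2, and at most 406 FPKM in young libraries 3 to 7. Without it the sum was 6.01 to 36.8 FPKM in aged libraries and 6.27 to 21.2 FPKM in young libraries. The defining markers Flt3, Clec9a and Itgax had at most 3 counts in every library (3 of the 10 listed), but others of the list were measured. Zbtb46 averaged 14.2 ± 10.8 normalised CPM in the aged and 10.2 ± 9.56 in the young group, and Batf3 6.05 ± 8.31 in the aged and 7.19 ± 4.63 in the young group. Fscn1 averaged 5.53 ± 5.19 in the aged and 7.52 ± 5.07 in the young group, and Xcr1 reached 21.6 in aged and 4.22 in young libraries at most. The part of such cells in the class II levels was not tested. B cell markers summed to between 0.13 and 25.01 FPKM in aged libraries and to between 3.72 and 78.1 FPKM in young libraries, and Ms4a1, Pax5 and Fcmr had at most 3 counts in every library. Choroid plexus markers summed to between 179 and 809 FPKM in aged libraries and to between 47.9 and 128 FPKM in young libraries. Most of that was Ttr, the transthyretin gene, at 595 ± 376 normalised CPM in the aged and 93.0 ± 34.8 in the young group (log2 fold change 2.68 ± 0.39, edgeR adjusted p = 0.0297). The level of Cd74 in the same libraries was between 2485 and 7905 FPKM.

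Other genes of the class II pathway were described from a list of 37, of which 34 were in the table and 30 were tested. Of the 30, 0 passed at an adjusted p under 0.05 by edgeR, DESeq2 or limma-voom, and 15 had positive and 15 negative log2 fold changes (median -0.03). At an unadjusted p under 0.05 edgeR found 5, DESeq2 4 and limma-voom 4; over all genes tested edgeR found 570 (5.97%).

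Of the 5, 4 were antigen-processing genes, and they had negative fold changes. In that group 6 of 7 fold changes were negative, with a median of -0.46. Cst3, which encodes the cathepsin inhibitor cystatin C and is abundant in brain macrophages, averaged 16190 ± 3298 normalised CPM in the aged and 23313 ± 5973 in the young group (log2 fold change -0.53 ± 0.22, edgeR unadjusted p = 0.0265, adjusted p = 0.66). Ctsd, the aspartic protease cathepsin D, averaged 623 ± 323 in the aged and 1181 ± 426 in the young group (-0.92 ± 0.32, edgeR unadjusted p = 0.0101, adjusted p = 0.468), and leaving out aged libraries 1, 3 and 4 gave -0.34. The other members with an unadjusted p under 0.05, named after their values were seen, were the cysteine protease gene Ctsl (629 ± 191 in aged, 863 ± 114 in young) and Ifi30, the lysosomal thiol reductase that opens disulfide bonds of antigens (141 ± 52.2 in aged, 222 ± 77.0 in young). Ctss, the cathepsin that makes the last cuts in the invariant chain, averaged 8175 ± 1207 in the aged and 7909 ± 1722 in the young group (log2 fold change 0.05 ± 0.19), the 1 positive value of the group.

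The 7 genes of the promoter-binding factors had positive fold changes, with a median of 0.75, and 0 had an unadjusted p under 0.05. Rfx5, Rfxap, Rfxank and Nfya were low, averaging 3.45, 5.90, 8.30 and 2.75 normalised CPM in the young group. Their log2 fold changes had SEs of 2.16, 1.54, 1.39 and 1.35, so their direction is uncertain. Creb1, which binds the X2 box, averaged 107 ± 57.4 normalised CPM in the aged and 62.0 ± 31.3 in the young group (log2 fold change 0.79 ± 0.48). Nfyb and Nfyc, subunits of the Y box factor, averaged 45.6 ± 25.03 and 24.3 ± 21.96 in aged, against 35.8 ± 20.4 and 23.2 ± 13.8 in young libraries. Along the interferon-gamma route that induces Ciita, 4 of 9 fold changes were positive. The receptor chain gene Ifngr2 averaged 291 ± 95.1 in the aged and 200 ± 24.8 in the young group (0.54 ± 0.24, edgeR unadjusted p = 0.0387, adjusted p = 0.774), and leaving out aged libraries 1, 3 and 4 gave 0.11. Ifngr1, the ligand-binding chain, averaged 466 ± 155 in the aged and 508 ± 125 in the young group.

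H2-Ob, a chain of H2-DO, the inhibitor of H2-DM, averaged 25.9 ± 26.5 normalised CPM in the aged and 9.74 ± 12.2 in the young group, and its partner H2-Oa, which did not pass the filter, 6.78 ± 15.2 in the aged and 12.6 ± 16.0 in the young group. Marchf1, the ubiquitin ligase that removes class II and CD86 from the surface, averaged 105 ± 44.8 in the aged and 117 ± 45.5 in the young group, and the related Marchf8 9.56 ± 15.8 in the aged and 14.5 ± 16.7 in the young group. Cd83, which is known to oppose Marchf1, averaged 482 ± 284 in the aged and 539 ± 200 in the young group. Cd40, the receptor through which T cells license antigen-presenting cells, averaged 4.65 ± 9.31 in the aged and 11.8 ± 8.90 in the young group, and Tnfsf9, the ligand of 4-1BB, 18.1 ± 27.0 in the aged and 17.3 ± 17.2 in the young group. Each of these differences was smaller than the larger SD of the groups.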

How the data were processed

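RNA-seq libraries of aged (n = 5) and young (n = 7) mice were grouped by their titles. The authors deposited 1 table of estimated counts and FPKM values, made on GRCm38 (mm10) with RSEM 1.2.12, HISAT2 2.0.4, DESeq2 1.4.5 and Bowtie2 2.2.5, per the submitters' processing notes, which give the tools no order; which annotation served is not given in these sources. The deposited FPKM values carry no unit in the header and were read as FPKM from their scaling with counts and length. Estimated counts were rounded, and between 88.2% and 90.6% per library, zeros included, were whole to within 1e-09 before that. RSEM shares reads between similar genes, so H2 paralogs are uncertain. Chi-square per degree of freedom between libraries was 274.8 or more, so none was a second sequencing of another library. It cannot tell whether separate libraries came from the same animal or RNA. Damaged or repeated symbols (24) were replaced through Entrez identifiers, of which RefSeq (GRCm38.p6) matched 17244 of 17358. It also gave coordinates and promoters. Promoter windows of 6 of 10 members were searched, and windows on chromosome 18, which holds Cd74, were left out of that search.

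Age groups were compared with edgeR 4.0.16 in R 4.3.3 (TMM, filterByExpr, robust quasi-likelihood F test, legacy=TRUE, Benjamini-Hochberg over 9550 genes, threshold 0.05), checked on simulated data. Alternatives were DESeq2 1.42.0, limma 3.58.1 (voom), legacy=FALSE, library totals, no filter, a length offset, a replicate block, and leaving out libraries. Correlations used 100000 resamples, or all orders within young libraries, in Python 3.11.15. Named genes were the 10 members, from each role of the pathway list the 2 of highest FPKM and the 1 of lowest p, and the 6 most like the class II profile. Members and lists were chosen with earlier results of these data known. Floors cover counting error only, since reads carry no molecular identifiers. The common biological coefficient of variation was 1.33.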

Additional observations from a re-analysis of the deposited data

Results flagged for a closer look

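H2-DMb2 in aged library 2 stood at 7.59 normalised CPM (225 estimated counts) while the other 4 aged libraries were at 0, and its reads are shared with H2-DMb1. Ciita in young library 4 stood at 19.58 normalised CPM (627 counts) while the other 6 young libraries were between 0 and 4.976. Both were singled out because the gap to the nearest library of the group, as a share of the group's range, was above Dixon's critical value. Chance marks about 1 in 20 groups in this way where values are normally distributed. Both genes have libraries at 0, so that rate need not hold for them. For H2-DMb2 any single detection beside aged libraries at 0 would have been marked, since the ratio is then 1.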

How the results depend on the processing

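The count of members past the threshold was 0 under every alternative. Over all genes the count was 1 in the main comparison, 121 with DESeq2, 38 with legacy=FALSE, 13 with no filter, 3 with library totals, 0 with the replicate block, 0 without aged libraries 1, 3 and 4, and 0 to 75 with 1 library left out, the highest without aged library 2. Of the pathway genes 0 passed, and with 1 library left out 0 to 1: Ctsb, without aged library 2 (log2 fold change -0.76, edgeR adjusted p = 0.027; over all genes 0.755% were called there). Several fold changes near 0 changed sign. Without aged libraries 1, 3 and 4 they were 0.14 for Cd74, 0.10 for H2-Ab1, 0.062 for H2-Eb1 and 0.18 for Cd80, and limma-voom gave -0.0576 for H2-Aa. With 1 library left out the ranges were -0.295 to 0.0936 for Cd74, -0.25 to 0.31 for H2-Aa, -0.56 to 0.0232 for H2-Ab1, -1.19 to 1.5 for Ciita -0.20 to 0.0125 for Cd86, 0.0853 to 0.62 for H2-DMb1, 0.33 to 0.62 for H2-DMa, -0.46 to -0.0754 for H2-Eb1 and -0.89 to -0.0911 for Cd80. The median log2 fold change of all genes was -0.13 with limma-voom and with library totals and -0.15 with the block, against -0.01 in the main comparison, and fold changes there are to be read against it. Same-numbered aged and young libraries did not deviate together (r from -0.0405 to 0.0938), so they share only a number; the replicate block gave -0.12 for H2-Aa, -1.81 for Ciita and 0.18 for Cd86, and 0 members passed. Of the 45 pairs, 12 passed, against 0 in young libraries only, 1 without aged libraries 1, 3 and 4, 4 without the 2 farthest libraries, and 7 to 12 with 1 library left out, the lowest without aged library 4. After centring on the age group means 15 passed, with library totals 12, with 0.1 added in place of 1 before the log 12, and on the deposited FPKM values 10. The causes were not tested. Ciita, H2-DMb2 and Cd80 in aged library 4 are limited by counts at or near 0.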
